A study of Mus musculus with 8 samples.

Results

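The 10 genes described here encode heat shock chaperones of the cytosol and of mitochondria. They are *Hspa1a*, *Hspa1b* and *Hspa8* of the HSP70 family, their partners *Hsph1* and *Dnajb1*, the HSP90 genes *Hsp90aa1* and *Hsp90ab1*, the small heat shock protein gene *Hspb1*, and the mitochondrial chaperonin genes *Hspd1* and *Hspe1*. They were chosen by name, through the Ensembl identifiers of the GENCODE M21 annotation of GRCm38, and are 10 of the 45706 identifiers counted. All 10 had enough counts to be tested (15491 genes did), and together they held 0.320% to 0.523% of the counts of a liver.

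The samples were livers of 8 male mice, 4 labelled *Srsf10-kd* and 4 labelled *Ctrl*. The strain is written C56B6/J in the sample labels and C57BL/6J in the methods of the study. All mice received a serotype 2/8 AAV by tail vein at 6 weeks of age, started a diet with 60% of calories from fat (HFD) 4 weeks later and ate it for 12 weeks, so both groups share the virus and the diet. The virus carried GFP and a mirE/shRNA under the chicken β-actin promoter, which is not restricted to hepatocytes. The shRNA was directed at *Srsf10*, a gene for a serine/arginine-rich splicing protein, in the *Srsf10-kd* group, and was a control shRNA in the *Ctrl* group. The comparison asks how the liver transcriptome under HFD differs when *Srsf10* is targeted.

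Heat shock chaperones bind unfolded or partly folded proteins and keep them from aggregating. HSP70 proteins bind and release short stretches of a client in a cycle driven by ATP, J-domain proteins such as DNAJB1 bring the client and start the cycle, and nucleotide exchange factors such as HSPH1 end it. HSP90 acts later, on clients such as steroid receptors and kinases, and HSPD1 with its lid HSPE1 folds proteins imported into mitochondria. Some of these genes, such as *Hspa8* and *Hsp90ab1*, are expressed at high levels in unstressed cells, whereas others, such as *Hspa1a* and *Hspa1b*, are known for induction by heat shock factor HSF1. HSF1 binds heat shock elements, which are inverted repeats of a unit of 3 bases.

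The promoter sequences are given first because *Hspa1a* and *Hspa1b* have near-identical ones and *Hspd1* and *Hspe1* share one. RefSeq promoter windows on GRCm38.p6, which run from 250 bases before to 50 bases after a start site, were at hand for 7 of the 10 genes, in 10 windows. No window was at hand for *Hspa8*, *Hsp90aa1* and *Hsp90ab1*. *Hspa1a* and *Hspa1b* lie on the minus strand of chromosome 17, with start sites 12918 bp apart. Their 250 bases before the start differed at 3 positions and were 98.8% identical. The sequences are at chr17:34972157-34972406 for *Hspa1a* and chr17:34959239-34959488 for *Hspa1b*, and single capitals mark the differing bases, while the run of capitals marks a heat shock element of 2 units.
Hspa1a: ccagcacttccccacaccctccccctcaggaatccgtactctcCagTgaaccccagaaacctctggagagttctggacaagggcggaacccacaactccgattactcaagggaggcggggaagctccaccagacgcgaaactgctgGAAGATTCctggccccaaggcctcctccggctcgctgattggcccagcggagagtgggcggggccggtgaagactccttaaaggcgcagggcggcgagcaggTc
Hspa1b: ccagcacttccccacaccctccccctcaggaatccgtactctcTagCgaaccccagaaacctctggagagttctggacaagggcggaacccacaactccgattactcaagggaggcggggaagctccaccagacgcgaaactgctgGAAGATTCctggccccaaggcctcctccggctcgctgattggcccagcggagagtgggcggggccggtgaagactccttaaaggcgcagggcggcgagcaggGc
The element of 2 units starts 104 bases before the start site of either gene. An element of 2 units, GAANNTTC or TTCNNGAA, each of which reads the same on both strands, was present in 15.1% of the 32851 promoter windows.

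*Hspd1* and *Hspe1* lie head to head on chromosome 1. *Hspd1* is on the minus strand and *Hspe1* on the plus strand, their annotated GENCODE start sites are 111 bp apart, and their first exons overlap. The window of *Hspe1* and 1 of the 2 RefSeq windows of *Hspd1* hold the same run of 4 alternating units, shown here from chr1:55088053-55088082 on the plus strand with the run in capitals.
Hspd1-Hspe1: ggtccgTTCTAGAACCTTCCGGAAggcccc
This run holds 2 overlapping matches to an element of 3 units, which is the 2-unit element extended by 1 more inverted unit after a spacer of 2 bases. The matches start 89 and 84 bases before the start site of *Hspe1*, and 144 and 139 bases before the RefSeq start of *Hspd1* at position 55087932, read on its own strand. The other RefSeq start of *Hspd1*, at position 55088243, is also its GENCODE start. Its window held no element of 2 or 3 units, and the run lies after that start, inside the annotated gene. An element of 3 units was found on either strand in 0.603% of the promoter windows, that is in 198 of them.

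*Hsph1*, on the minus strand of chromosome 5, was the only other gene of the 7 with 3 units. The match lies after the start sites, 15 and 36 bases from the starts of its 2 RefSeq windows, and is shown in capitals at chr5:149636280-149636308.
Hsph1: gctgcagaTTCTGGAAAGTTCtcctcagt
Before the start sites, *Hsph1* also had an element of 2 units, which starts 54 and 33 bases from them, in the same order. *Hspb1* had 2 elements of 2 units, which start 117 and 97 bases before its start site. No element of 2 or 3 units was found in the 2 windows of *Dnajb1*. In total 3 of the 7 genes had an element of 3 units and 6 had one of 2 units. A match describes the letters of the window only.

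A liver held between 50456404 and 59697241 counted reads. *Srsf10* measured 34.3, 34.0, 41.0 and 36.5 CPM (counts scaled with TMM to a common library size) under the *Srsf10-kd* label and 31.6, 33.7, 35.3 and 30.9 CPM in *Ctrl*, so the targeted RNA was not lower in the livers that carry the knockdown label (log2 fold change 0.15, standard error 0.10, edgeR adjusted p = 0.378, and 0.09 without *Srsf10-kd* 3). All directions below are therefore those of the labels. The study itself reported lower *Srsf10* RNA by qPCR and lower SRSF10 protein by western blot in *Srsf10-kd* livers. The counts of these 8 libraries do not show the lower RNA. Libraries *Srsf10-kd* 3 and *Ctrl* 3 stood apart from the other libraries of their groups. In *Srsf10-kd* 3 longer transcripts had lower levels, with a slope of -0.18 log2 per doubling of length against -0.02 to -0.06 in the other livers labelled *Srsf10-kd*, and the slope was -0.03 in *Ctrl* 3 against 0.09 to 0.13 in the other *Ctrl* livers. The slope was thus negative in every *Srsf10-kd* liver and positive in every *Ctrl* liver but number 3. The length trend partly goes with the label, and their parts in a fold change cannot be fully told apart. Hepatocyte markers were summed at 97812 to 115066 CPM in *Srsf10-kd* and 81312 to 107395 CPM in *Ctrl*, and all 8 of them were tested. With bulk RNA, fewer cells of a type and less RNA per cell cannot be told apart. The p-values of group differences set the difference against the variation between these livers.

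None of the 10 chaperone genes passed the threshold of adjusted p under 0.05 in the edgeR test, in which 0.071% of all tested genes passed. *Hspa1a* was the only one of the 10 with an unadjusted p under 0.05, where 21.8% of all tested genes were. It was also the only one whose livers did not overlap between groups, with *Srsf10-kd* above, as were 6.73% of all tested genes, and none lay wholly below, as 7.53% of all genes did. In 6 of the 10 genes the estimate was higher in *Srsf10-kd* and in 4 it was lower. Their median log2 fold change was 0.07, beside 0.01 over all tested genes. DESeq2 placed *Hspa1a* past the threshold (log2 fold change 0.60, adjusted p = 0.0191) and none of the other 9, where it called 5.21% of the genes it tested, 1.98% as higher in *Srsf10-kd*. limma-voom with quality weights did the same (0.75, adjusted p = 0.00731, with 11.7% of all genes called and 5.03% called higher).

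**Figure D1:**
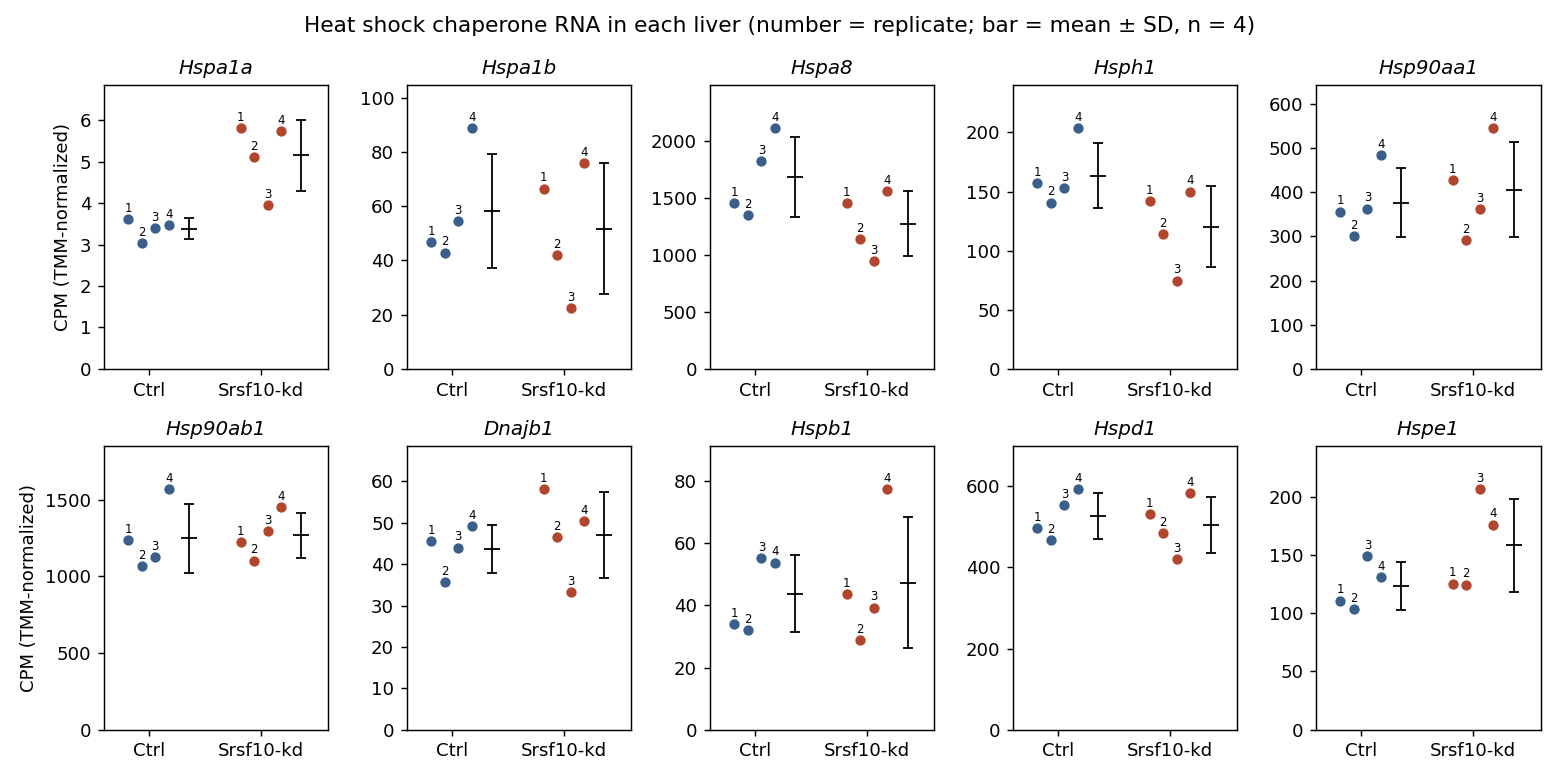
TMM-normalized CPM (vertical axes from 0) of each chaperone gene in the *Ctrl* (blue) and *Srsf10-kd* (red) livers, with the replicate number above each point and the mean ± SD (n = 4) as a bar. The groups separate for *Hspa1a* (3.95 CPM or more against 3.61 CPM or less) and overlap for the other 9 genes.

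When the 10 genes were ordered by their mean level per transcript length (TPM over the 8 livers), the constitutive cytosolic chaperones led. *Hsp90ab1* was at 991 TPM and *Hspa8* at 821 TPM, at percentiles 98.8 and 98.7 of the tested genes. *Hspd1* followed at 464 TPM, *Hsp90aa1* at 235 TPM, *Hspe1* at 222 TPM and *Hspb1* at 104 TPM. *Hspa1b* at 46.9 TPM, *Hsph1* at 46.8 TPM and *Dnajb1* at 33.6 TPM formed a lower set, and *Hspa1a* was lowest at 3.39 TPM. Neighbours such as *Hsp90aa1* and *Hspe1*, or *Hspa1b* and *Hsph1*, differed by less than the spread between livers. TPM was not corrected for 75-base stretches that also occur in other transcripts. These made up 61.7% of *Hspa1a*, 55.8% of *Hspa1b*, 46.4% of *Hspb1*, 42.8% of *Hsp90aa1*, 33.0% of *Hspa8* and 31.0% of *Hspd1*. The share was 14.6% for *Hspe1*, 0.537% for *Hsp90ab1* and 0% for *Hsph1* and *Dnajb1*. Genes with unequal shares are thus not strictly comparable in this order. *Hspa1b* also varied most between livers, with a ratio of 3.94 between its highest and lowest liver, and *Hspd1* least, with a ratio of 1.41.

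*Hspa1a* (ENSMUSG00000091971) is one of the inducible HSP70 genes, a single exon at chr17:34969190-34972156. It was 5.81, 5.11, 3.95 and 5.74 CPM in *Srsf10-kd* 1 to 4 and 3.61, 3.03, 3.40 and 3.48 CPM in *Ctrl* 1 to 4. Every *Srsf10-kd* liver was above every *Ctrl* liver, and the *Srsf10-kd* liver nearest to *Ctrl* was number 3. The *Srsf10-kd* mean was 5.15 ± 0.860 CPM and the *Ctrl* mean 3.38 ± 0.251 CPM (SD, 4 livers each). The difference was 1.52-fold (log2 fold change 0.61, standard error 0.15, unadjusted p = 0.00256, edgeR adjusted p = 0.116). The exact permutation test over the 70 assignments of livers to groups gave p = 0.0286, the smallest that 4 against 4 allows. Without both number 3 livers the log2 fold change was 0.72 (edgeR adjusted p = 0.0179), where 8.62% of all genes tested were called and 2.76% called higher, and with 1 liver left out it ranged from 0.55 to 0.72 (adjusted p from 0.0506 to 0.322).

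The counts behind *Hspa1a* were low and its identity is uncertain. A liver held 171 to 333 counts, and 61.7% of the 75-base stretches of its transcript also occur in other transcripts, chiefly those of *Hspa1b*. Of the stretches in its coding part, 75.4% also occur in *Hspa1b*, against 0% of those in the 813 bases after the coding part. A second gene, *Gm20481*, lies on the opposite strand with all of its exons inside the exon of *Hspa1a*. It held 104, 82, 72 and 92 counts in *Srsf10-kd* 1 to 4 and 50, 65, 71 and 38 counts in *Ctrl* 1 to 4, and was thus lower in *Ctrl* except that *Ctrl* 3, after scaling, was within the *Srsf10-kd* range. Its log2 fold change was 0.68 (standard error 0.23, edgeR adjusted p = 0.154). The summed cholangiocyte markers also lay higher in every *Srsf10-kd* liver than in any *Ctrl* liver (48.5 to 71.0 CPM against 32.5 to 40.3 CPM). The part that the opposite-strand gene, shared reads or these cells have in the *Hspa1a* difference was not tested.

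*Hspa1b* (ENSMUSG00000090877, chr17:34956436-34959238) encodes an almost identical inducible HSP70. It was 66.4, 42.0, 22.5 and 75.7 CPM in *Srsf10-kd* and 46.8, 42.9, 54.6 and 88.7 CPM in *Ctrl*. The ranges overlapped, with *Srsf10-kd* 3 lowest and *Ctrl* 4 highest. Its log2 fold change was -0.17 (standard error 0.36, edgeR adjusted p = 0.785), and it was 0.05 without both number 3 livers. When the counts of *Hspa1a* and *Hspa1b* were summed as 1 gene, which leaves the split between them out of account, the log2 fold change was -0.12 (standard error 0.33, edgeR adjusted p = 0.847). Most of the summed counts are those of *Hspa1b* (24521 over all livers, against 1886 of *Hspa1a*), so the sum says little about *Hspa1a*.

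*Hspa8* (ENSMUSG00000015656, chr9:40800984-40810087) is the constitutive cytosolic HSP70, known for its part in protein folding, clathrin uncoating and chaperone-mediated autophagy. It was 1454, 1138, 947 and 1562 CPM in *Srsf10-kd* and 1453, 1353, 1827 and 2113 CPM in *Ctrl*. The lowest livers, numbers 3 and 2, were labelled *Srsf10-kd* and the highest, numbers 4 and 3, *Ctrl*, with overlap between them. The log2 fold change was -0.40 (standard error 0.20, edgeR adjusted p = 0.261, exact permutation p = 0.171), and -0.24 without both number 3 livers. A processed pseudogene, *Gm15459*, shares most of the 33.0% of its 75-base stretches that occur elsewhere. That pseudogene held 155 to 687 counts per liver and had a log2 fold change of -0.72 (standard error 0.26, edgeR adjusted p = 0.178), and -0.45 without both number 3 livers.

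*Hsph1* (ENSMUSG00000029657, chr5:149614287-149636376), the nucleotide exchange factor, was 142, 114, 74.7 and 150 CPM in *Srsf10-kd* and 157, 141, 153 and 204 CPM in *Ctrl*. Its lowest liver was *Srsf10-kd* 3 and its highest *Ctrl* 4, and the groups overlapped between 141 and 150 CPM. It had the largest negative estimate of the 10 genes (log2 fold change -0.44, standard error 0.21, edgeR adjusted p = 0.251, exact permutation p = 0.0857), and the estimate was -0.30 without both number 3 livers and -0.31 after a correction for transcript length in each library. No 75-base stretch of *Hsph1* occurs in another transcript.

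*Dnajb1* (ENSMUSG00000005483, chr8:83608193-83612653), the J-domain protein that loads clients on HSP70, was 58.2, 46.5, 33.3 and 50.4 CPM in *Srsf10-kd* and 45.6, 35.6, 44.0 and 49.3 CPM in *Ctrl*. Both the highest and the lowest liver were labelled *Srsf10-kd*. The log2 fold change was 0.11 (standard error 0.17, edgeR adjusted p = 0.709), and 0.25 without both number 3 livers.

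*Hsp90aa1* (ENSMUSG00000021270, chr12:110690605-110702728), the more inducible of the cytosolic HSP90 genes, was 427, 292, 361 and 545 CPM in *Srsf10-kd* and 356, 300, 363 and 485 CPM in *Ctrl*. *Hsp90ab1* (ENSMUSG00000023944, chr17:45567775-45573271), the constitutive one, was 1223, 1102, 1294 and 1452 CPM in *Srsf10-kd* and 1237, 1066, 1124 and 1569 CPM in *Ctrl*. In both genes the number 4 livers were the highest of their group and the number 2 livers the lowest, and the groups overlapped. The log2 fold change was 0.11 for *Hsp90aa1* (standard error 0.21, edgeR adjusted p = 0.760) and 0.02 for *Hsp90ab1* (standard error 0.15, edgeR adjusted p = 0.942). Without both number 3 livers they were 0.15 and -0.03. *Hsp90aa1* shared 42.8% of its 75-base stretches with other transcripts, most often with the pseudogene *Gm12346*, and *Hsp90ab1* shared 0.537%.

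*Hspb1* (ENSMUSG00000004951, chr5:135887919-135889563), the small heat shock protein HSP25, holds unfolded proteins without ATP. It was 43.6, 28.9, 39.3 and 77.5 CPM in *Srsf10-kd* and 34.0, 32.0, 55.3 and 53.8 CPM in *Ctrl*. *Srsf10-kd* 4 was well above the other 7 livers, and *Srsf10-kd* 2 was the lowest. The log2 fold change was 0.11 (standard error 0.30, edgeR adjusted p = 0.834), and it was -0.23 without *Srsf10-kd* 4 and 0.33 without both number 3 livers. Its 75-base stretches were shared at 46.4% with *Hsp25-ps1* and *Gm9817*, so its counts are uncertain.

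*Hspd1* (ENSMUSG00000025980, chr1:55077835-55088243), the chaperonin of the mitochondrial matrix, was 532, 485, 420 and 583 CPM in *Srsf10-kd* and 496, 467, 554 and 593 CPM in *Ctrl*. The livers overlapped over most of their range, with *Srsf10-kd* 3 lowest. The log2 fold change was -0.06 (standard error 0.14, edgeR adjusted p = 0.795), and 0.04 without both number 3 livers. *Hspe1* (ENSMUSG00000073676, chr1:55088132-55091307), the lid of the chaperonin, was 125, 125, 207 and 176 CPM in *Srsf10-kd* and 111, 104, 149 and 131 CPM in *Ctrl*. Here *Srsf10-kd* 3 was the highest liver rather than the lowest, and the groups overlapped between 125 and 149 CPM. The log2 fold change was 0.36 (standard error 0.19, edgeR adjusted p = 0.284, exact permutation p = 0.2), and it was 0.08 after the same correction for transcript length. Without *Srsf10-kd* 3 it was 0.20, and without both number 3 livers 0.31. By longest transcript, the length used in the correction, *Hspe1* is the second-shortest of the 10 genes, after *Hspb1* (964 and 930 bp).

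**Figure D2:**
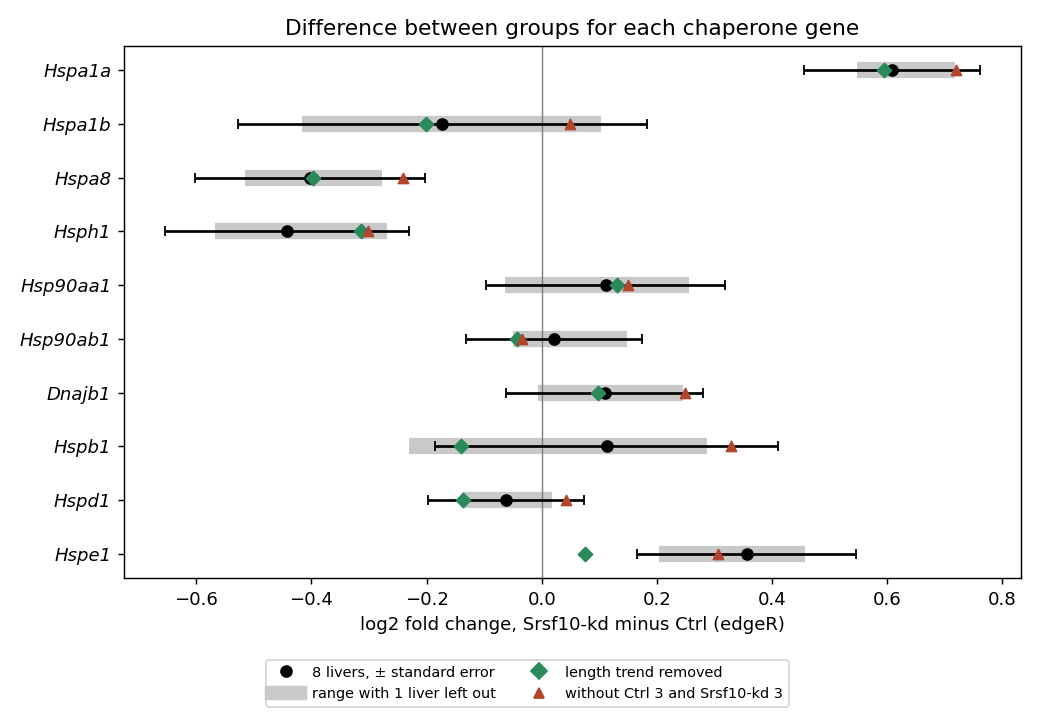
Log2 fold change (*Srsf10-kd* minus *Ctrl*, horizontal axis) of each chaperone gene in edgeR, with its standard error, the range with each liver left out in turn (grey), the value with the transcript length trend removed (green) and the value without both number 3 livers (red). *Hspa1a* stays between 0.55 and 0.72 in every fit drawn and *Hspa8* and *Hsph1* stay below 0, while *Hspa1b*, *Hsp90aa1*, *Hsp90ab1*, *Dnajb1*, *Hspb1* and *Hspd1* lie on both sides of 0.

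Single livers stood out across several of these genes. *Srsf10-kd* 3 was the lowest of the 8 livers for 5 genes (*Hspa1b*, *Hspa8*, *Hsph1*, *Dnajb1* and *Hspd1*) and the highest for *Hspe1*. *Ctrl* 4 was the highest for 5 genes (*Hspa1b*, *Hspa8*, *Hsph1*, *Hsp90ab1* and *Hspd1*), and *Ctrl* 2 the lowest for 3 (*Hspa1a*, *Hsp90ab1* and *Hspe1*). Over the 10 genes the median deviation from the mean of the 8 livers ran from -0.29 log2 in *Ctrl* 2 to 0.32 log2 in *Ctrl* 4. In *Srsf10-kd* 3 the deviation was -1.18 log2 for *Hspa1b*, -0.88 log2 for *Hsph1* and -0.61 log2 for *Hspa8*, beside 0.59 log2 for *Hspe1*. In the same liver the red blood cell markers summed to 800 CPM, the stellate cell markers to 296 CPM and the cholangiocyte markers to 71.0 CPM, each the highest of the 8 livers, and the macrophage markers to 323 CPM, the highest of the *Srsf10-kd* livers. The part of these cells in the chaperone levels was not tested.

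**Figure D3:**
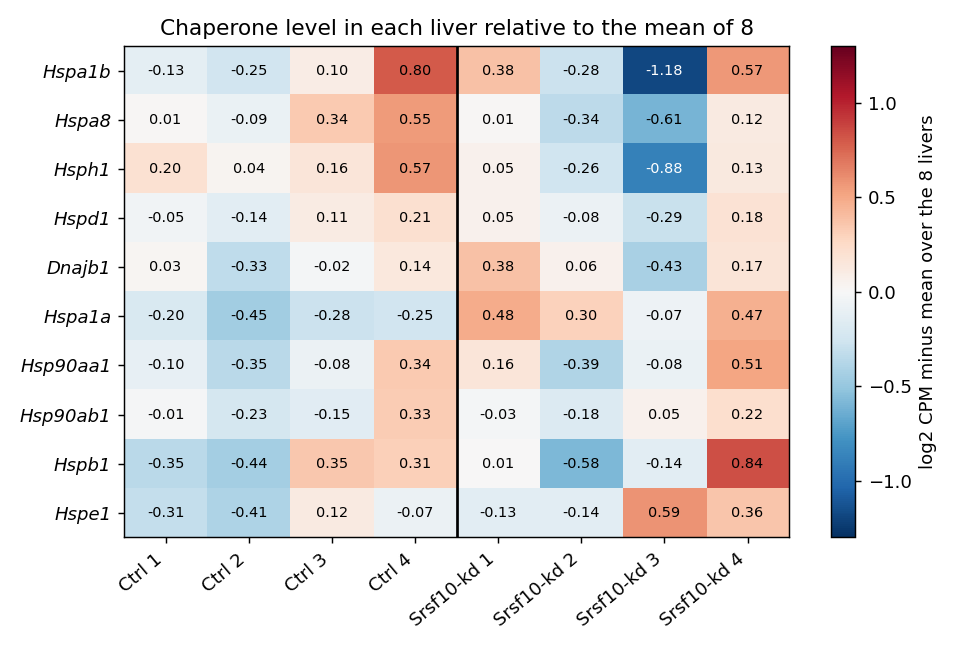
Log2 CPM of each chaperone gene in each liver minus the mean of that gene over the 8 livers (color and printed value), with *Ctrl* livers left of the line and *Srsf10-kd* livers right of it. The column of *Srsf10-kd* 3 reaches -1.18 for *Hspa1b* and 0.59 for *Hspe1*, and only the row of *Hspa1a* keeps all *Ctrl* livers below all *Srsf10-kd* livers.

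Some of the chaperone genes varied together across the livers. No pair that held *Hspa1a* or *Hspe1* passed the test below over all 8 livers, which includes differences between the groups. The share for pairs of other genes was not computed. Of the 45 pairs, 38 had a positive Pearson correlation of log2 CPM over the 8 livers, and 8 passed an adjusted p of 0.05 in the exact permutation test over pairings (Benjamini-Hochberg over the 45 pairs), with 4 passing on Spearman's rho. The closest pair was *Hspa1b* and *Hspd1* (r = 0.96, exact permutation p = 0.000347, adjusted 0.0123, rho = 0.95, exact permutation p = 0.00114, adjusted 0.0251). It was r = 0.90 without the 2 livers farthest from the median of *Hspa1b*, *Srsf10-kd* 3 and *Ctrl* 4. *Hspa8* and *Hsph1* followed (r = 0.93, exact permutation p = 0.000546, adjusted 0.0123, rho = 0.86, p = 0.0107, adjusted 0.0964), at 0.83 without the same 2 livers. *Hspa8* and *Hspd1* were at r = 0.90 (exact permutation p = 0.0027, adjusted 0.0297, rho = 0.95, p = 0.00114, adjusted 0.0251) and at 0.71 without them. *Hspa1b* and *Hsph1*, at r = 0.90 over all livers, were at 0.45 without them, so that relation rests on those livers. Without the same livers *Hsph1* and *Hspd1* went from r = 0.84 to 0.45, and *Hspa1b* and *Hspa8* from 0.88 to 0.55. For *Hsp90aa1* the farthest livers were *Srsf10-kd* 4 and *Ctrl* 4. Without these, its r went from 0.87 to 0.69 with *Hsp90ab1* and from 0.89 to 0.70 with *Hspb1*. Within groups, on deviations from the group means, 11 pairs passed the adjusted p of 0.05 over the pairings within groups. On these deviations *Hspa1a* had r = 0.95 with *Dnajb1*, 0.91 with *Hsph1*, 0.86 with *Hspa1b*, 0.81 with *Hspd1* and 0.77 with *Hspa8*. Its r was 0.51 with *Hsp90aa1*, 0.40 with *Hspb1*, 0.23 with *Hsp90ab1* and -0.41 with *Hspe1*. *Srsf10-kd* 3 was the lowest *Srsf10-kd* liver for *Hspa1a*. It was the lowest of the 8 livers for *Dnajb1*, *Hsph1*, *Hspa1b*, *Hspd1* and *Hspa8*. The r on deviations were not computed without that liver, and the pairs among the 11 are not named here.

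The 2 pairs that are alike by position or sequence had low correlations over the 8 livers. *Hspd1* and *Hspe1*, which share a promoter region, had r = -0.08 over the 8 livers (exact permutation p = 0.851, adjusted 0.851, rho = 0.24, p = 0.582, adjusted 0.708). Without *Srsf10-kd* 3 and *Ctrl* 4 the value was 0.93, so the low value rests on those livers, and on deviations from the group means over all livers it was 0.04. *Hspa1a* and *Hspa1b* had r = 0.23 over all livers (exact permutation p = 0.606, adjusted 0.657, rho = 0.12, p = 0.793, adjusted 0.850). This r was -0.30 without the 2 livers farthest from the median of *Hspa1a*, *Srsf10-kd* 1 and 4. On deviations from the group means over all livers r was 0.86, a value that was not computed with livers left out.

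Ratios within a liver leave out what moves both genes alike. The 4 ratios were chosen after the levels had been seen. The ratio of *Hspa1a* to *Hspa1b* was 0.0874, 0.122, 0.175 and 0.0757 in *Srsf10-kd* and 0.0772, 0.0705, 0.0623 and 0.0392 in *Ctrl*. The highest 3 livers were labelled *Srsf10-kd*, and *Srsf10-kd* 4 fell below *Ctrl* 1. The difference was 0.85 log2 (exact permutation p = 0.0571, 0.171 after Benjamini-Hochberg adjustment over the 4 ratios), and 0.62 log2 without *Srsf10-kd* 3. The ratio of *Hspe1* to *Hspd1* was 0.235, 0.257, 0.492 and 0.302 in *Srsf10-kd* and 0.223, 0.222, 0.269 and 0.220 in *Ctrl*. *Srsf10-kd* 3 stood far above the other livers, and *Ctrl* 3 stood above the other *Ctrl* livers. The difference was 0.40 log2 (exact permutation p = 0.0857, adjusted 0.171) and 0.18 log2 without *Srsf10-kd* 3, a value moved by more than 1.5 times by 1 library. *Hsp90aa1* to *Hsp90ab1* (difference 0.06 log2, exact permutation p = 0.686, adjusted 0.686) and *Hsph1* to *Hspa8* (difference -0.07 log2, exact permutation p = 0.514, adjusted 0.686) overlapped widely. Without *Srsf10-kd* 3 these differences were 0.12 and 0.0072 log2.

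**Figure D4:**
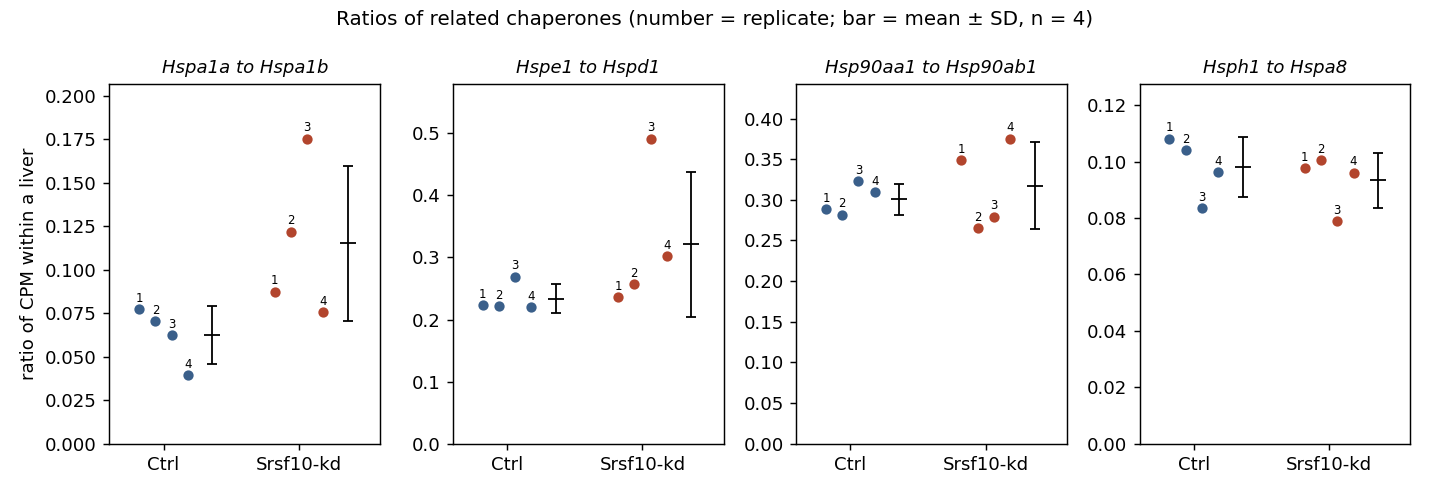
Ratio of the CPM of 2 related chaperone genes within each liver (vertical axes from 0), with the replicate number above each point and the mean ± SD (n = 4) as a bar. *Srsf10-kd* 3 is highest for *Hspa1a* to *Hspa1b* (0.175) and for *Hspe1* to *Hspd1* (0.492), and the groups overlap in all 4 ratios.

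The genes whose pattern over the 8 livers was most like that of *Hspa8*, among 10957 genes with a mean log2 CPM of at least 1, were *Cidec*, which encodes a lipid droplet protein (r = 0.98), *Stip1*, which encodes the adaptor that links HSP70 to HSP90 (r = 0.98), *Pglyrp2* (r = 0.97), *Elovl2*, which encodes an elongase of polyunsaturated fatty acids (r = 0.97), and *Riok3* (r = 0.97). For *Hspd1* they were *Dus2* (r = 0.95), *Pvr* (r = 0.94), *Spice1* (r = 0.94), *Il1rn* (r = 0.94) and *Rassf6* (r = 0.94). For *Hspa1a* they were *Rbm12b2* (r = 0.94), *Tifa* (r = 0.93), *9030616G12Rik* (r = 0.91), *Rcc1l* (r = 0.90) and *Snx6* (r = 0.90). These values describe the 8 livers, which share libraries and depth, and are the highest of 10957.

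The wider chaperone network was read from the same edgeR fit. Of 108 genes in 8 other lists of chaperones and heat shock regulators, 103 were tested and none passed adjusted p under 0.05 in edgeR. At an unadjusted p under 0.05, 11 were higher and 9 lower in *Srsf10-kd*, beside 11.2% and 10.6% of all tested genes, and their median log2 fold change was 0.06. DESeq2 called 3 of them, where it called 5.21% of all genes it tested, and limma-voom 6, where it called 11.7%, so both counts lie below the share of all genes. Among the heat shock transcription factors and their regulator, all 4 tested genes had estimates above 0, with *Hsf1*, the master regulator of the heat shock response, at 0.15 (standard error 0.15, edgeR adjusted p = 0.558), *Hsf2* at 0.27 (edgeR adjusted p = 0.223) and *Hsbp1*, which encodes an HSF1-binding repressor, at 0.44 (edgeR adjusted p = 0.146). *Hsbp1* did not overlap between groups, at 62.7 to 94.4 CPM against 52.3 to 62.0 CPM. Of the 103 tested genes of these lists, 6 lay wholly above *Ctrl* and 7 wholly below, beside 6.73% and 7.53% of all tested genes.

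Among HSP70 partners 14 of 28 tested genes had estimates above 0 and 14 below. *Dnajc2*, which encodes a ribosome-associated J-domain protein, was at 0.41 log2, while *Hspa4l*, a relative of *Hsph1*, was at -0.46 and *Dnajc5*, a J-domain protein of vesicles, at -0.32 (edgeR adjusted p = 0.150, 0.174 and 0.174). The most abundant of them was *Bag1*, a nucleotide exchange factor, at 155 TPM and a log2 fold change of 0.15. Among the 15 HSP90 co-chaperones 10 estimates were above 0. *Ptges3*, which encodes the co-chaperone p23, was 104 to 148 CPM in *Srsf10-kd* and 87.9 to 94.2 CPM in *Ctrl* (log2 fold change 0.43, edgeR adjusted p = 0.133, DESeq2 adjusted p = 0.0347). *Cdc37l1*, a relative of the kinase co-chaperone CDC37, was 31.3 to 33.5 CPM against 37.0 to 41.6 CPM (log2 fold change -0.25, edgeR adjusted p = 0.161, DESeq2 adjusted p = 0.0439). *Tomm34* was at 0.37, and *Fkbp4*, the most abundant at 175 TPM, at -0.01.

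Of the 6 small heat shock proteins tested, *Hspb11* was at 0.64 log2 (edgeR adjusted p = 0.129, DESeq2 adjusted p = 0.0275), at 3.82 to 6.48 CPM against 2.83 to 3.28 CPM. The product of *Hspb11* is a subunit of intraflagellar transport and not known as a chaperone of the heat shock type. *Cryab* was at 0.45, and *Hspb8*, the most abundant at 256 TPM, at -0.22. Among the 15 mitochondrial chaperones and proteases 7 estimates were above 0 and 8 below, with *Pam16*, part of the import motor, at 0.57, *Grpel2*, a nucleotide exchange factor of mitochondrial HSP70, at -0.46, the protease gene *Afg3l2* at -0.31 and *Hspa9*, the mitochondrial HSP70 itself, at -0.12. The CCT chaperonin and prefoldin list had 12 of 14 estimates above 0 and a median of 0.17, which fell to 0.04 with the transcript length trend removed. *Pfdn1* was at 0.43 and *Vbp1* at 0.37, both prefoldin subunits, *Pfdn5* was at 0.41, and *Cct5*, the most abundant, at 0.11. Among the 19 ER chaperones, *Hyou1* was at -0.45, *Pdia4* at -0.20, *Manf* at 0.40 and the most abundant, *P4hb*, at -0.14, none past adjusted p 0.05. The cold-inducible genes *Cirbp* and *Rbm3* were at 0.27 and -0.19.

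Many of these values moved by more than 1.5 times once the length trend was taken out. *Hsbp1* was then at 0.18, *Hspa4l* at -0.17, *Dnajc5* at -0.09, *Cdc37l1* at -0.09, *Cryab* at 0.18, *Afg3l2* at -0.18, *Pfdn1* at 0.17 and *Vbp1* at 0.18 log2. *Hspb11* was at 0.42, *Pam16* at 0.36, *Pfdn5* at 0.13, *Cirbp* at 0.02, *Hspb8* at -0.37, *Bag1* at -0.08, *Cct5* at -0.05 and *Fkbp4* at -0.06. *Dnajc2* was at 0.48 and *Ptges3* at 0.29 log2, both within 1.5 times of the values above.

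Single libraries moved others. Without *Srsf10-kd* 3, *Manf* was at 0.075, *Pam16* at 0.25, *Pfdn5* at 0.20, *Pfdn1* at 0.26, *Cryab* at 0.27, *Cirbp* at 0.14, *Bag1* at 0.08, *Hspa9* at -0.06, *Fkbp4* at -0.06 and *Rbm3* at -0.08 log2. Without *Ctrl* 3, *Hsf1* was at 0.03, *Hspb8* at -0.14, *Cirbp* at 0.17, *Rbm3* at -0.09 and *Fkbp4* at 0.07. Without both, *Cirbp* was at 0.04, *Hsf1* at 0.06, *Hspb8* at -0.11, *Manf* at 0.10, *Hsbp1* at 0.29, *Dnajc2* at 0.27, *Tomm34* at 0.24, *Cryab* at 0.29 and *Pam16* at 0.34, while *Fkbp4* at 0.02 and *Rbm3* at 0.03 log2 were on the other side of 0.

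**Figure D5:**
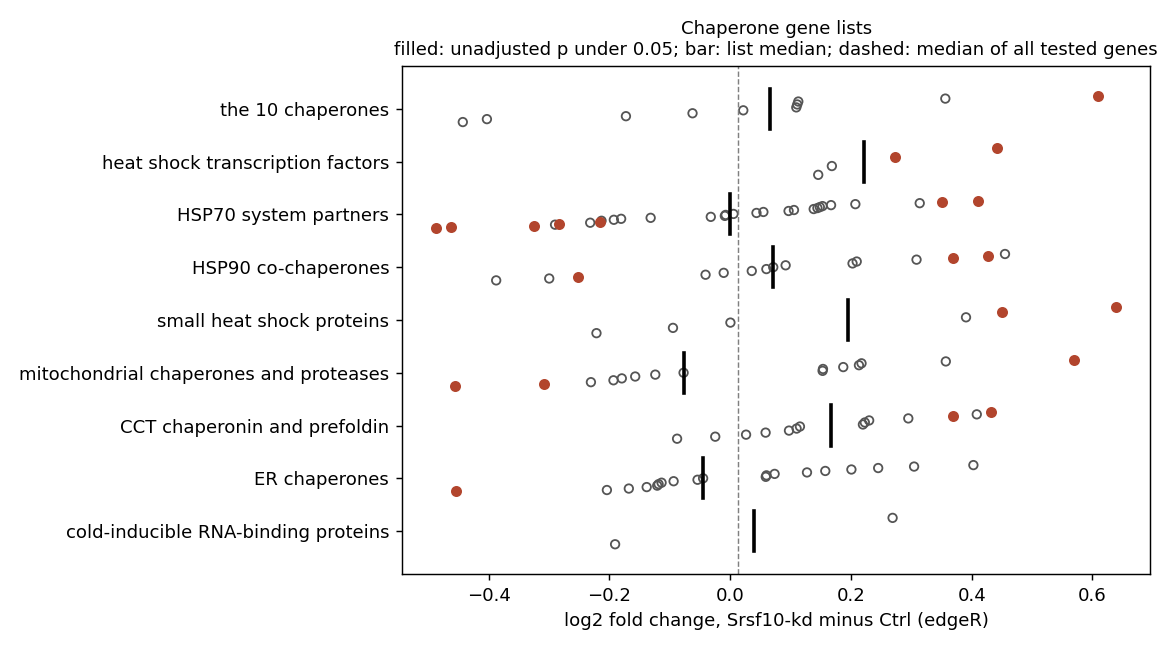
Log2 fold change (*Srsf10-kd* minus *Ctrl*, edgeR, horizontal axis) of every tested gene in the 10 chaperones and the 8 other lists, with filled points at an unadjusted p under 0.05, a bar at the median of each list and a dashed line at the median of all tested genes (0.01). Estimates spread over both sides of 0 in most lists, and the CCT chaperonin and prefoldin list has 12 of 14 above 0.

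Of the cholangiocyte markers, whose sums are given with *Hspa1a*, 4 of 6 were at an unadjusted p under 0.05, with none past the adjusted threshold and none at 0 in all livers. The same p held for 3 of 6 red blood cell, 2 of 7 lymphocyte and 1 of 8 hepatocyte markers and for none of the others but the endothelial ones, beside 21.8% of all tested genes. Of the endothelial markers 4 of 8 were at an unadjusted p under 0.05, at sums of 234 to 276 CPM against 250 to 298 CPM. The red blood cell markers summed to 294 to 800 CPM against 292 to 381 CPM. Macrophage markers (181 to 323 CPM against 231 to 328 CPM), stellate cell markers (172 to 296 CPM against 193 to 217 CPM), lymphocyte markers (2.76 to 3.88 CPM against 2.83 to 4.50 CPM) and neutrophil markers (1.03 to 3.12 CPM against 1.91 to 2.11 CPM) overlapped.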

How the data were processed

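Liver RNA of 8 mice was measured by poly(A) RNA-seq with paired reads of 75 bases. Alignment to GRCm38 by the authors used STAR 2.7.7a, and they deposited the raw count of reads per gene as STAR gave it. The annotation release and strand column are not given in the sources used here, and the labels name the library kit without, the methods with, a directional protocol. Of 427 genes nested in exons of the opposite strand, 135 held at least 10 counts, which counting without strand would leave unassigned where both are annotated. Overlapping genes and genes that share 75-base stretches are uncertain.

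Counts were analysed here in R 4.3.3 with edgeR 4.0.16 (TMM, filterByExpr, quasi-likelihood test on condition, two-sided, Benjamini-Hochberg over 15491 genes). Alternatives were DESeq2 1.42.0, which the study used, limma 3.58.1 voom with quality weights, other scaling and filters, the replicate block, livers left out, and removal of each library's lowess trend (span 0.5) on transcript length or GC. CPM are TMM-scaled, log2 CPM for permutation tests and correlations used a prior count of 2, and TPM used exon-union lengths of GENCODE M21, which holds 45143 of the 45706 identifiers. No pair of the 28 pairs of libraries was a duplicate (chi-square per degree of freedom at least 51.0). The scripts were tested on simulated data. The chaperone genes and all lists were chosen with earlier results of these data known. Genes named from other lists were the 3 with the smallest p and the most abundant by TPM, plus both cold-inducible genes, *Hsf1* and *Hsf2*. For likeness the 5 genes with the highest r were named. Genes flagged below for 1 liver were named because of that.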

Additional observations from a re-analysis of the deposited data

Results flagged for a closer look

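In 7 of the 86 groups of 4 livers examined, 1 liver lay far from the other 3, by the gap to the nearest liver as a share of the whole range (Dixon's criterion). Chance flags about 1 in 20 groups, which is 4.3 here. The *Hspe1* to *Hspd1* ratio was 0.269 in *Ctrl* 3 and 0.220 to 0.223 in the other *Ctrl* livers, with a gap of 0.944 of the range. This is the only one of the 7 on the 10 chaperone genes.

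The others lie in the wider lists. *Hsbp1* was 62.0 CPM in *Ctrl* 1 and 52.3 to 53.2 CPM in the other *Ctrl* livers (gap 0.910). *Dnajc2* was 27.5 CPM in *Ctrl* 4 and 23.5 to 23.8 CPM in the others (gap 0.921). *Tomm34* was 8.58 CPM in *Srsf10-kd* 1 and 10.8 to 11.1 CPM in the other livers of that label (gap 0.898). *Pam16* was 15.0 CPM in *Ctrl* 3 and 11.5 to 12.0 CPM in the others (gap 0.862). *Manf* was 100.2 CPM in *Ctrl* 4 and 148 to 155 CPM in the others (gap 0.875). *P4hb* was 1681 CPM in *Ctrl* 3 and 1517 to 1534 CPM in the others (gap 0.899).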

How the results depend on the processing

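The count of chaperone genes past adjusted p 0.05 was 0 in edgeR and 1 (*Hspa1a*) with DESeq2, with limma-voom and without both number 3 livers. Over all tested genes it was 11, and 819 with DESeq2, 1814 with limma-voom, 46 with no filter on low counts, 1342 without both number 3 livers, and 0 to 544 with 1 liver left out (544 without *Ctrl* 3 and 64 without *Srsf10-kd* 3). All 11 were among the genes called by DESeq2, limma-voom and the fit without the number 3 livers. The other chaperone lists went from 0 to 3, 6 and 1 called genes with DESeq2, limma-voom and without the number 3 livers. The cause was not tested.

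With the replicate number as a block, 59 genes were called and 0 of the 10 chaperones, with *Hspa1a* at adjusted p = 0.0822 in edgeR. At an unadjusted p under 0.05 the block gave 4 of the 10 chaperones, against 1 without it. The correlations of deviations between livers of equal number were -0.18, 0.21, 0.27 and 0.22. *Srsf10-kd* 2, 3 and 4 correlated best with the *Ctrl* liver of their own number and *Srsf10-kd* 1 with *Ctrl* 4. Since 1 pair did not correlate above 0.1 and the labels name no shared litter or batch, the block was kept as an alternative. This is a hint from the data, not from the design.

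The sign of *Hspa1a*, *Hspa8*, *Hsph1* and *Hspe1* was the same in every alternative run. The sign turned for *Hspa1b* with limma-voom (0.28) and without both number 3 livers (0.049), for *Hspd1* in the same fits (0.098 and 0.042), for *Hsp90ab1* without both number 3 livers (-0.034) and with the length trend removed (-0.044), and for *Hspb1* with the length trend removed (-0.14). With 1 liver left out the log2 fold changes ran from -0.42 to 0.10 for *Hspa1b*, -0.063 to 0.26 for *Hsp90aa1*, -0.050 to 0.15 for *Hsp90ab1*, -0.0066 to 0.25 for *Dnajb1*, -0.23 to 0.29 for *Hspb1* and -0.14 to 0.019 for *Hspd1*. Ratios without the number 3 livers were added after seeing the data. Limits on depth fall on *Hspa1a*, at 171 to 333 counts per liver.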
